A study of Mus musculus with 6 samples.

Results

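The transcripts described here are those of 9 genes of transforming growth factor beta (TGF-beta) signalling: the ligand genes Tgfb1, Tgfb2 and Tgfb3, the receptor genes Tgfbr1 and Tgfbr2, the co-receptor genes Tgfbr3 and Eng, and the feedback and repressor genes Smad7 and Skil. Every probe set whose only gene symbol in the platform's annotation is one of these names was taken, which gave 21 of the 45101 probe sets on the array and 9 of 18194 named genes. The cells were mouse embryonic stem cells of a Dicer -/- line, called 27H10 in the study's title and 27H in its sample names. All 6 samples carry that deletion, so none can cut microRNA precursors into mature microRNAs. In 3 samples the undifferentiated cells had been transfected with Dharmacon mimics of the mmu-miR-290 cluster (mimic arrays), and in 3 with siRL, an siRNA against Renilla luciferase, which has no intended target in mouse cells (control arrays). RNA was examined 24 h after transfection, on 1 Affymetrix array per sample. The results describe 1 line at 1 time. The labels do not say whether replicates were separate cultures, so the spread behind the p-values may be only technical.

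TGF-beta ligands are secreted as latent dimers that have to be released before they signal. An active ligand binds the type II receptor, Tgfbr2, which recruits and phosphorylates the type I receptor, Tgfbr1, and this in turn phosphorylates Smad2 and Smad3, which enter the nucleus with Smad4. Smad7 and Skil act as brakes on this route, at the receptor and in the nucleus, and both are induced by it. The comparison asks how transcripts of the pathway differ when Dicer-deficient cells are supplied with microRNAs that embryonic stem cells normally make in abundance.

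The transfected agent is shown first because its seed, bases 2 to 8, is the stretch by which a microRNA mainly recognises its targets. The labels name the cluster and not each mimic. The mature sequences below are RefSeq's (GRCm38.p6, plus strand of chromosome 7), 5′ to 3′, for the 6 arms named 3p that the table holds, with the seed in capitals.
mmu-miR-290a-3p: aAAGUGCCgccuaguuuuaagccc
mmu-miR-291a-3p: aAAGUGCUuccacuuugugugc
mmu-miR-291b-3p: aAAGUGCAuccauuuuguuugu
mmu-miR-293-3p: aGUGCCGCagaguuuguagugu
mmu-miR-294-3p: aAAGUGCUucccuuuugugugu
mmu-miR-295-3p: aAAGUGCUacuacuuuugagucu

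The arms of miR-291a, miR-294 and miR-295 share the seed AAGUGCU, which the table gives to 5 of 1679 mature names (0.298%), the others being mmu-miR-302b-3p and mmu-miR-302d-3p. The arms of miR-290a and miR-291b carry the same letters up to the last base of the seed, so AAGUGC begins at base 2 in 5 of the 6. The arm of miR-293 has the seed GUGCCGC. The cluster also includes mmu-miR-292a-3p, which is not shown and not counted here. The arms shown span chr7:3218674-3220837. Among the 5p arms, miR-290a, miR-292a and miR-293 share the seed CUCAAAC. Whether the transcripts below hold matches to these seeds was not analysed here.

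The 6 arrays were alike in brightness, with median intensities between 41.7 and 44.9, with correlations of 0.963 to 0.969 among arrays of a group and 0.959 to 0.964 across groups (log2 scale, probe sets past the filter). The embryonic stem cell markers Pou5f1, Nanog, Sox2, Zfp42 and Utf1 lay between 5803 and 15833 on every array, with 0 of 5 past the test. Of 5 fibroblast markers only Thy1 passed the filter on low values, and Col1a1, Col1a2, Col3a1 and Postn did not. Dicer1 lay between 1026 and 1143 on the mimic arrays and between 1129 and 1177 on the control arrays. Whether its probe set covers the deleted sequence is not given, so it does not check the line.

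Of the 21 probe sets, 15 had a mean log2 intensity of at least 4, an intensity of 16, and were tested. The other 6 were dimmer and are given as values only. The dimmest tested were probe sets of Tgfb2 (mean log2 4.11) and Tgfbr1 (4.14), and the brightest untested were those of Tgfbr1 (3.87) and Tgfb1 (3.74). Of the 15 tested, 1 was lower, the main probe set of Tgfbr2, and 0 were higher with the mimics at an adjusted p under 0.05 in limma with Benjamini-Hochberg adjustment over all 29167 probe sets. Over all probe sets tested, 0.946% were called lower and 0.343% higher. When limma's prior variance was allowed to follow the signal level, with robust estimation (the level-dependent robust prior), 3 of the 15 were called lower and 1 higher, against 6.56% and 4.73% of all probe sets tested. At an unadjusted p under 0.05 there were 6 of the 15, against 20.1% of all probe sets tested. These 6 include Tgfb2 1450922_a_at, whose mimic values were all under 16, and a further probe set of that gene. They are therefore not 6 separate genes, and no excess is read from the count. The groups did not overlap for 6 of the 15, 40%, against 29.2% of all probe sets tested. The median difference was −0.24 on the log2 scale over the 15 and −0.01 over all, with 10 of the 15 lower on average and 5 higher. Of all probe sets tested, 50.7% were lower on average. The 10 include Tgfb2 1450922_a_at and Tgfbr1 1420894_at, which had a mean log2 under 4 on the mimic arrays. Both passed the filter only through the control arrays, and some of the 10 are probe sets of the same gene.

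**Figure D1:**
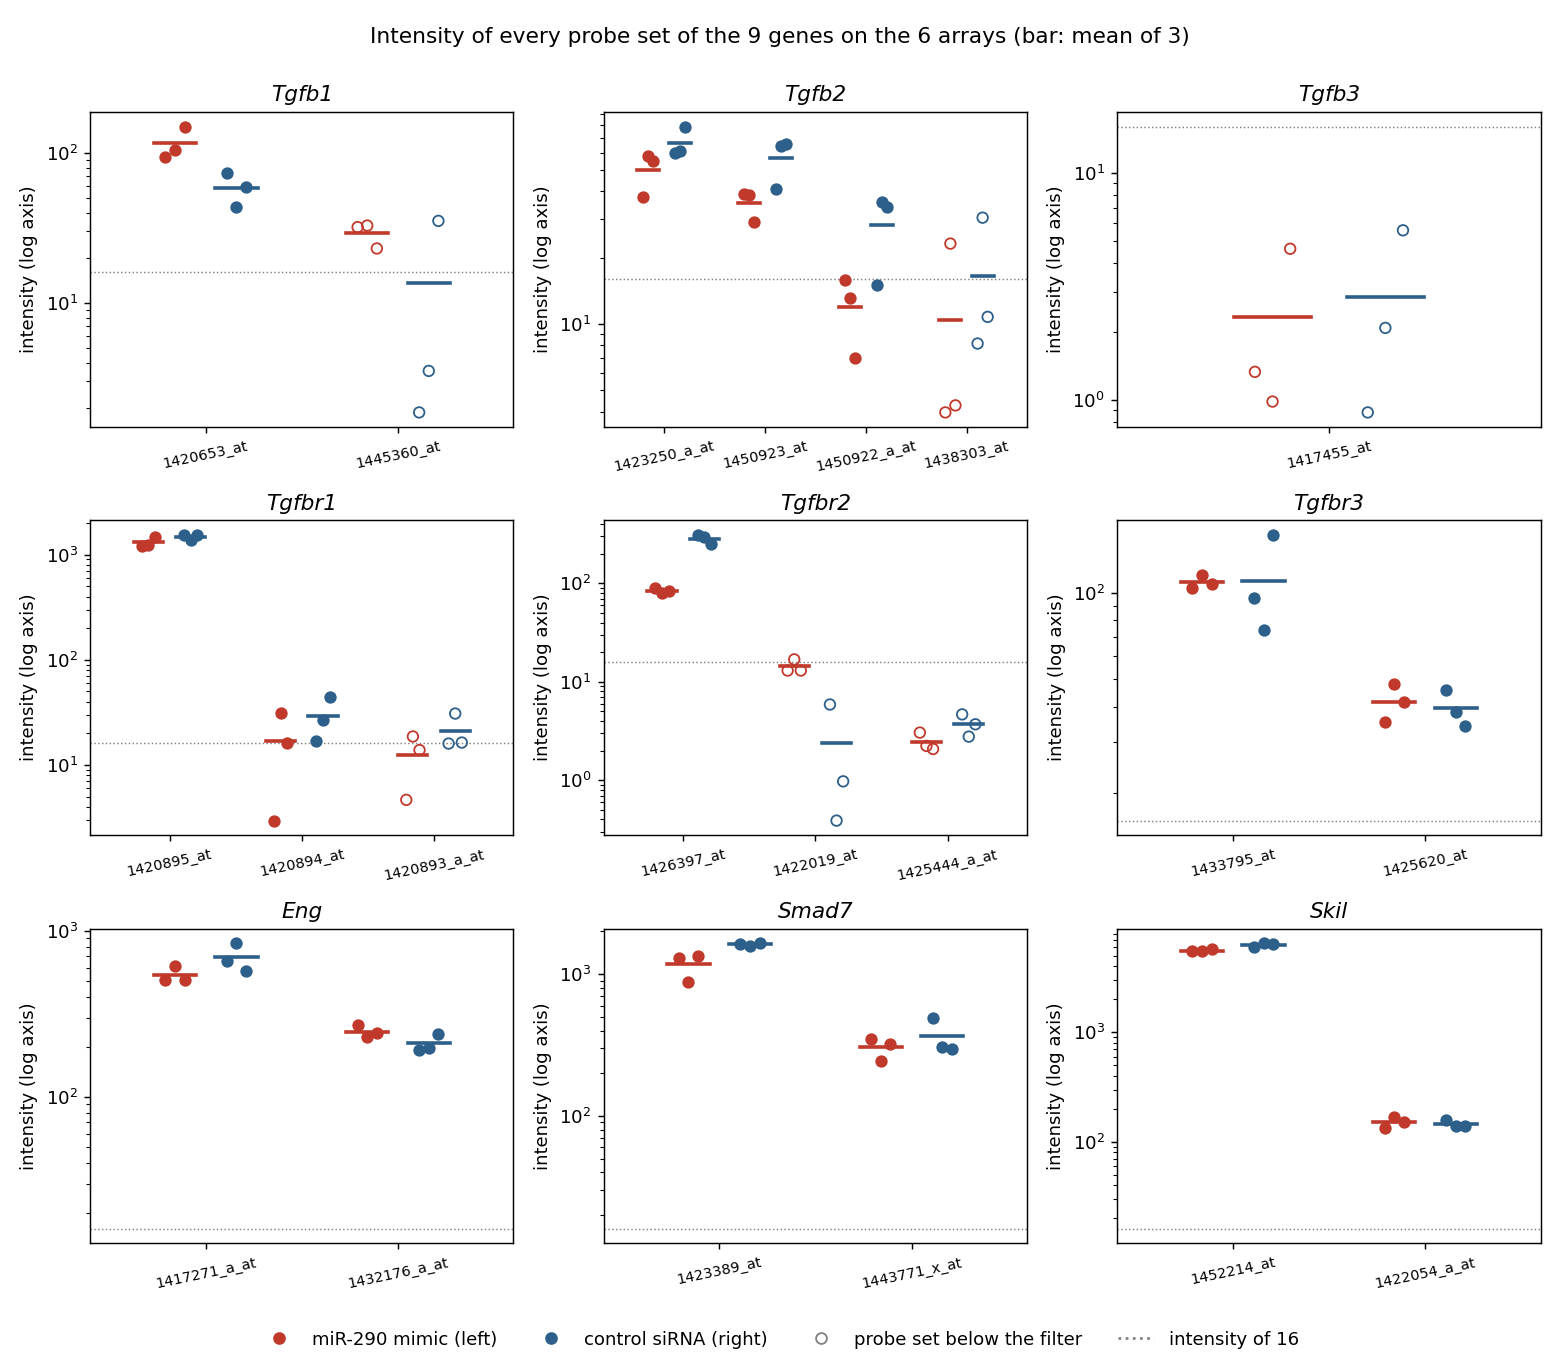
Intensity (log axis) of each of the 21 probe sets of the 9 genes, 1 panel per gene, with the 3 mimic arrays left of the 3 control arrays, bars at the means, open circles for probe sets below the filter and a dotted line at an intensity of 16. The brightest Tgfbr2 probe set stands at 80.4 to 88.9 on the mimic arrays and 249.8 to 313 on the control arrays, while the brightest Tgfbr1 and Eng probe sets overlap between the groups.

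Tgfbr2, which encodes the receptor that binds active TGF-beta and starts the signal, fell. Its probe set 1426397_at read 88.9, 80.4 and 83.2 on the mimic arrays, against 313, 294 and 249.8 on the control arrays. Every mimic value was under 100 and every control value was near or above 250, and both groups were tight. The means were 84.2 ± 4.35 with the mimics and 286 ± 32.3 with the control siRNA (SD, n = 3 each), so the control level was 3.38 times the mimic level. The log2 difference was −1.76 ± 0.11 (SE; 95% interval −2.04 to −1.48), with a limma adjusted p of 0.0231. The probe set ranked 11 of 29167 by p-value and 89 of 29167 by size of fall. Among the 276 called lower, whose median fall was 1.84-fold, it ranked 15 by size of fall. The direction was the same in all 19 alternatives tried, from −1.85 to −1.59, but the call was not. Tgfbr2 lost it with no filter on low values (limma adjusted p = 0.104) and with replicate number as a block (limma adjusted p = 0.208). It also lost it without any 1 of the 6 arrays (limma adjusted p from 0.0991 to 0.135). In all of these fits limma called 0 or 1 probe sets on the whole array. With the level-dependent robust prior Tgfbr2 was called in all 6 fits without 1 array. In those fits that prior called 1971 to 2844 probe sets on the whole array.

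The array holds other probe sets for Tgfbr2, all too dim to be tested. Probe set 1422019_at read 13.0, 16.9 and 13.0 on the mimic arrays and 5.89, 0.389 and 0.975 on the control arrays. Its groups did not overlap, in the opposite direction, but 5 of its 6 values were under 16, the intensity chosen for the filter. Such low values were not separated from background here. Probe set 1425444_a_at read between 2.08 and 3.05 on the mimic arrays and between 2.78 and 4.67 on the control arrays. Neither passed the filter, so the fall of Tgfbr2 rests on 1 probe set.

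Tgfbr1 encodes the type I receptor kinase that Tgfbr2 activates. Its brightest probe set, 1420895_at, read 1209, 1248 and 1466 on the mimic arrays, against 1539, 1376 and 1548 on the control arrays. The groups overlapped, since mimic replicate 3 lay above control replicate 2. The log2 difference was −0.19 ± 0.11 (SE, limma adjusted p = 0.399), and its interval allows a mimic level between 0.725 and 1.06 times the control level. A dimmer probe set, 1420894_at, read 2.95, 31.3 and 16.1 with the mimics and 16.8, 26.9 and 44.0 with the control siRNA, a spread too wide for its difference of −1.25 to be placed (95% interval −3.65 to 1.15). It passed the filter only through the control arrays, and with 16 added to every intensity its difference was −0.52. The untested 1420893_a_at ran from 4.65 to 18.6 with the mimics and from 15.97 to 30.8 with the control siRNA.

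Tgfbr3 encodes betaglycan, a co-receptor that presents ligand, TGF-beta2 above all, to the signalling receptors. Probe set 1433795_at read 104, 115 and 107 on the mimic arrays, against 96.1, 74.3 and 159 on the control arrays. The mimic values lay inside the range of the control values, which were the more scattered. The log2 difference was 0.06 ± 0.29 (SE, limma adjusted p = 0.931), and the interval runs from 0.626 to 1.73 times the control level. Probe set 1425620_at gave 0.07 ± 0.16, also with overlapping groups (35.4 to 47.9 with the mimics and 34.3 to 45.7 with the control siRNA). Neither probe set has a settled direction, because the sign turned without control replicate 1 or 2 for the first (−0.0013 and −0.19), and without mimic replicate 2 or control replicate 3 for the second (−0.034 and −0.023).

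Eng encodes endoglin, a co-receptor best known from blood vessel endothelium. Probe set 1417271_a_at read 505, 614 and 508 on the mimic arrays, against 657, 845 and 574 on the control arrays, and the groups overlapped through mimic replicate 2. The log2 difference was −0.34 ± 0.17 (SE, limma adjusted p = 0.354), and −0.19 without control replicate 2. Probe set 1432176_a_at leaned the other way, at 269, 229 and 241 with the mimics and 192, 197 and 240.3 with the control siRNA (0.24 ± 0.12, limma adjusted p = 0.361). The probe sets of Eng therefore disagree in sign, and neither passed. Of 5 endothelial markers, 4 passed the filter and 0 the test, and Cdh5 was below the filter. Their summed intensity was 840 to 971 with the mimics and 921 to 1064 with the control siRNA. Most of it came from Pecam1 (mean 573 with the mimics and 666 with the control siRNA). The tested markers differed in sign: Pecam1 gave −0.22 and Kdr −0.46, Tek 0.05 and Cldn5 0.46. Whether endothelial cells were present, and their part in the Eng values, was not tested. In bulk RNA fewer cells of a type and less RNA per cell cannot be told apart.

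The difference of Tgfbr2 was set against those of the other receptor genes within each array, through the brightest probe set of each. The log2 ratio to Tgfbr1 was lower by 1.57 with the mimics, that to Tgfbr3 by 1.82 and that to Eng by 1.42. In all 3 comparisons the mimic arrays lay below the control arrays. Tgfbr2 was already the only member called on these same arrays, and the 3 ratios share its values. They therefore describe the same fall and are not separate evidence of it. The exact two-sided permutation p was 0.1 each, and 0.1 after adjustment over the 3. That is the smallest p that 3 arrays against 3 can give, so such a test cannot reach 0.05.

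**Figure D2:**
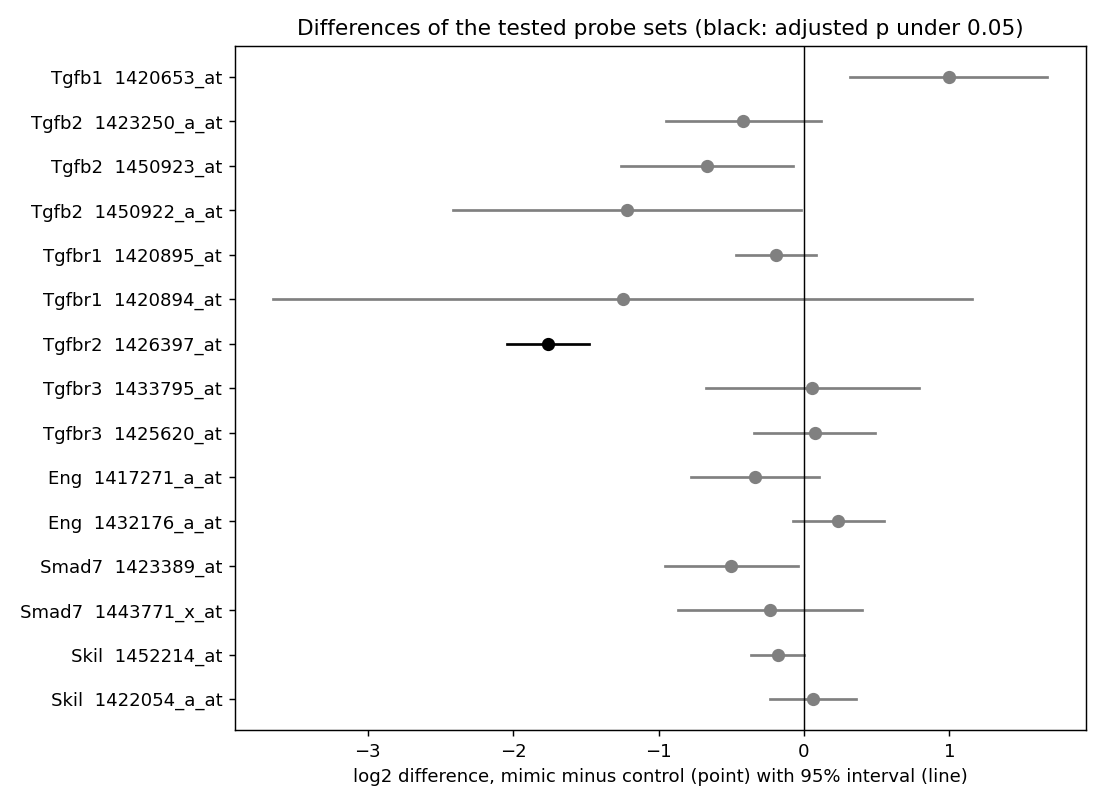
Log2 difference, mimic minus control, of the 15 tested probe sets (points) with limma's 95% intervals (lines), black where the adjusted p was under 0.05. Tgfbr2 at −1.76 is the only black point, Tgfb1 at 0.99 lies farthest to the right, and the second Tgfbr1 probe set has an interval from −3.65 to 1.15.

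The ligand genes gave low intensities and differed in direction. Tgfb1, the ligand most widely made in the body, read 94.4, 105 and 150.3 on the mimic arrays, against 73.3, 43.4 and 59.0 on the control arrays with 1420653_at. Every mimic value lay above every control value. The mimic level was 1.99 times the control level (95% interval 1.25 to 3.18), and the log2 difference of 0.99 ± 0.27 SE did not pass (limma adjusted p = 0.133). With the level-dependent robust prior it did (limma adjusted p = 0.0386), but without 1 array at a time it did so in 1 of 6 fits. The untested 1445360_at read 32.1, 32.8 and 23.1 with the mimics and 1.86, 3.52 and 35.3 with the control siRNA, so control replicate 3 lay above all of the mimic values.

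Tgfb2, a ligand with roles in heart and palate development, had 3 tested probe sets, all lower on average, and none passed the test. Probe set 1450923_at read 38.8, 38.6 and 29.0 on the mimic arrays, against 41.1, 64.3 and 65.3 on the control arrays, which did not overlap, though mimic replicate 1 and control replicate 1 lay close together. Its log2 difference was −0.66 ± 0.23 (SE, limma adjusted p = 0.207). Probe set 1423250_a_at, at 37.8, 58.0 and 54.8 with the mimics and 59.4, 61.0 and 78.8 with the control siRNA, gave −0.42 ± 0.21 (limma adjusted p = 0.349), again without overlap, and −0.22 without mimic replicate 1. Probe set 1450922_a_at gave −1.22 ± 0.47 (limma adjusted p = 0.243) with overlapping groups, at 7.01 to 15.9 with the mimics and 15.0 to 35.7 with the control siRNA. Its mimic values were all under 16 and it passed the filter only through the control arrays, so its direction adds no support. With 16 added to every intensity the 3 differences were −0.49, −0.32 and −0.64. These are probe sets of 1 gene on the same arrays and not separate evidence of a difference. The untested 1438303_at was lower on average as well, at 3.97 to 23.2 with the mimics and 8.15 to 30.4 with the control siRNA.

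No value of Tgfb3 reached the intensity of the filter. Its only probe set, 1417455_at, read 1.33, 0.983 and 4.63 on the mimic arrays and 0.881, 2.08 and 5.58 on the control arrays. All 6 values lay under 16.

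Smad7, an inhibitory Smad that TGF-beta itself induces and that blocks and degrades the type I receptor, was lower on average. Probe set 1423389_at read 1289, 880 and 1341 on the mimic arrays, against 1636, 1586 and 1657 on the control arrays. The groups did not overlap, the control values were close together, and mimic replicate 2 was the lowest of the 6. The means were 1170.0 ± 252 with the mimics and 1626 ± 36.8 with the control siRNA (SD, n = 3 each). The log2 difference of −0.50 ± 0.18 SE did not pass (limma adjusted p = 0.215). It passed with the level-dependent robust prior (limma adjusted p = 0.0414) and with that prior in 3 of 6 fits that left out 1 array. Without mimic replicate 2 the difference was −0.31, the smallest of the settings tried. The second probe set, 1443771_x_at, read 347, 245 and 321 with the mimics and 491, 305 and 298 with the control siRNA, and its difference of −0.24 ± 0.25 did not pass (limma adjusted p = 0.643) and was −0.0024 without control replicate 1 and −0.087 without mimic replicate 2.

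Skil encodes SnoN, a nuclear repressor of Smad-driven transcription whose gene is itself a TGF-beta target. Probe set 1452214_at read 5490, 5555 and 5731 on the mimic arrays, against 6069, 6564 and 6403 on the control arrays. The groups did not overlap, and the gap was small: the mimic level was 0.882 times the control level (95% interval 0.778 to 0.998). The log2 difference was −0.18 ± 0.071 (SE, limma adjusted p = 0.244), and the level-dependent robust prior called it (limma adjusted p = 0.0377). Without 1 array at a time that prior called it in 1 of 6 fits. The dimmer 1422054_a_at read 133, 170 and 152 with the mimics and 156, 139 and 139 with the control siRNA, a difference of 0.06 ± 0.12 that became −0.022 without mimic replicate 2.

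**Figure D3:**
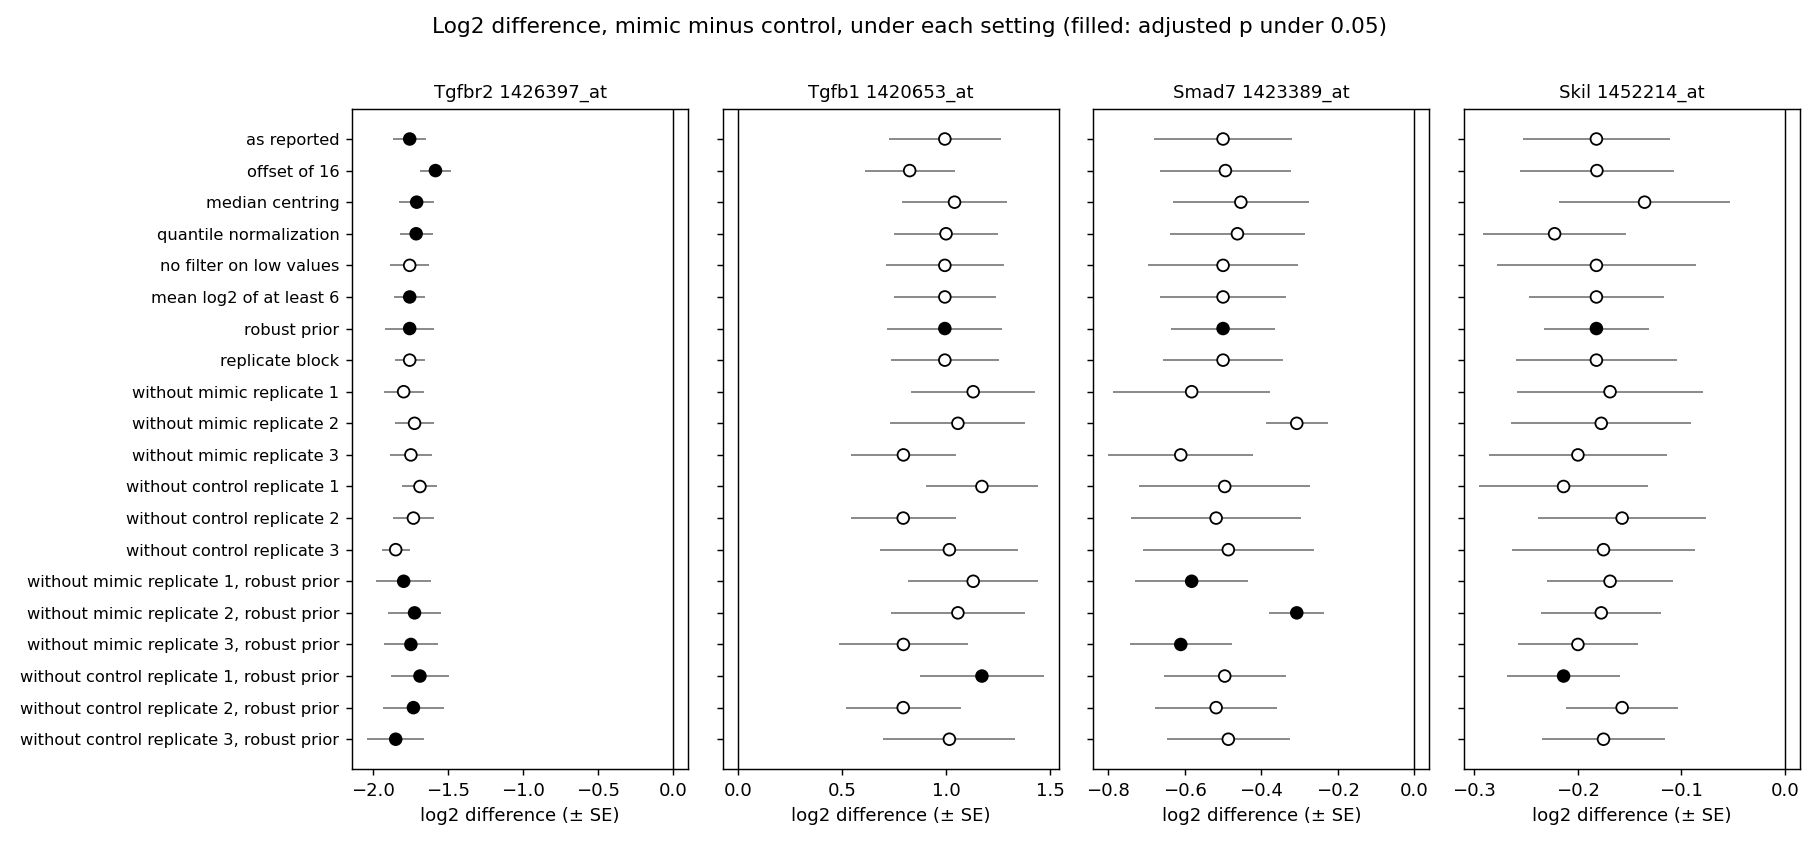
Log2 difference, mimic minus control (points, with SE), of the brightest probe sets of Tgfbr2, Tgfb1, Smad7 and Skil under the reported setting and 19 alternatives, filled where the adjusted p was under 0.05; robust prior stands for the level-dependent robust prior, and each panel has its own scale. No point crosses 0, Tgfbr2 is filled in 12 of 20 settings, Smad7 in 4, and Tgfb1 and Skil in 2 each.

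The other genes of the pathway were counted in 4 lists with 46 genes, through the brightest probe set of each gene. Of these, 41 were tested, 3 were below the filter (Ltbp2, Itgb6 and Itgb8) and 2 were not analysed here. With the mimics 2 were called lower, 1 of them (Tgfb1i1) a gene that passed the filter only through its control values, and 0 higher, against 1.38% of all 13815 genes tested called lower and 0.456% called higher. The median difference over the 41 was −0.15 on the log2 scale and that over all genes −0.01. The groups did not overlap for 23 of the 41, against 35.5% of all genes tested. With the level-dependent robust prior 14 of the 41 were called lower and 3 higher, against 9.43% and 6.2% of all genes tested. Tgfb1i1 is among the 23 and among the 14. The lists were chosen with earlier results of these data known, so these counts are no test of the pathway as a set.

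Both genes called lower were in the list of response genes, where 9 of the 11 tested did not pass. Tagln, which encodes the actin-binding protein transgelin, read 260.2 ± 21.3 with the mimics and 539.5 ± 65.7 with the control siRNA (SD, n = 3 each; log2 difference −1.05 ± 0.12 SE, limma adjusted p = 0.0422). Tgfb1i1 encodes Hic-5, a focal adhesion protein first found as induced by TGF-beta1, and read 10.004, 7.82 and 14.2 on the mimic arrays, all under the intensity of 16, against 72.7, 58.0 and 54.1 on the control arrays. It passed the filter only through the control arrays, so its call (limma adjusted p = 0.0347) is no independent support and the size of its difference is not settled: −2.56 on the log2 scale, and −1.54 with 16 added to every intensity. Both calls were lost with no filter, with replicate number as a block and without any 1 array, all under the constant prior variance. In those fits limma called 0 or 1 probe sets on the whole array. With the level-dependent robust prior Tagln was called in every fit without 1 array. Tgfb1i1 was called in all of these but the fit without control replicate 1. Median centring of the arrays ended the call of Tagln, and a filter at a mean log2 of 6 removed Tgfb1i1. Among the members that did not pass, and chosen after their values were seen, Fn1, the fibronectin gene, gave 0.43 (limma adjusted p = 0.0566), Ccn2, a matrix-associated growth factor gene, −0.27, and Klf10 0.06. The list had a median of 0.03.

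Of 8 genes for ligand processing and activation 0 passed, with a median of −0.30. Itgav, an integrin subunit that takes part in freeing latent TGF-beta, read 1279 ± 241 with the mimics and 2155 ± 278 with the control siRNA (SD, n = 3 each; −0.76 ± 0.18 SE, limma adjusted p = 0.101). Ltbp4, a protein that tethers latent ligand to the matrix, read 1389 ± 104 with the mimics and 1110.0 ± 108 with the control siRNA (0.33, limma adjusted p = 0.19). The groups did not overlap for either gene. Furin, the protease that cleaves the ligand precursor, gave −0.68 (limma adjusted p = 0.0676) and was named after its value was seen.

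Of 12 regulators at the receptor 0 passed, with a median of −0.23. Fkbp1a, which binds and restrains the type I receptor, gave 0.19 (limma adjusted p = 0.274), and its other tested probe sets gave 0.17, 0.06 and 0.01. Strap, a Smad7-binding adaptor, gave 0.18 (limma adjusted p = 0.387), whereas its other tested probe sets gave −0.55 and −0.38, so its direction depends on the probe set. Of 10 Smads and nuclear cofactors 0 passed, with a median of −0.14. Smad4, the partner shared by the signalling Smads, read 3765 ± 384 with the mimics and 4631 ± 305 with the control siRNA (−0.30, limma adjusted p = 0.216), and other Smad4 probe sets gave −0.09 and −0.02. Tgif1, a corepressor, gave 0.17 (limma adjusted p = 0.358). Chosen after their values were seen, the signal carriers Smad2 and Smad3 gave −0.07 and −0.38, and Ski, the relative of Skil, gave −0.53 (limma adjusted p = 0.655, 0.0834 and 0.112). Their other tested probe sets gave −0.03 for Smad2, −0.28 and −0.34 for Smad3 and −0.14 for Ski, and none passed.

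**Figure D4:**
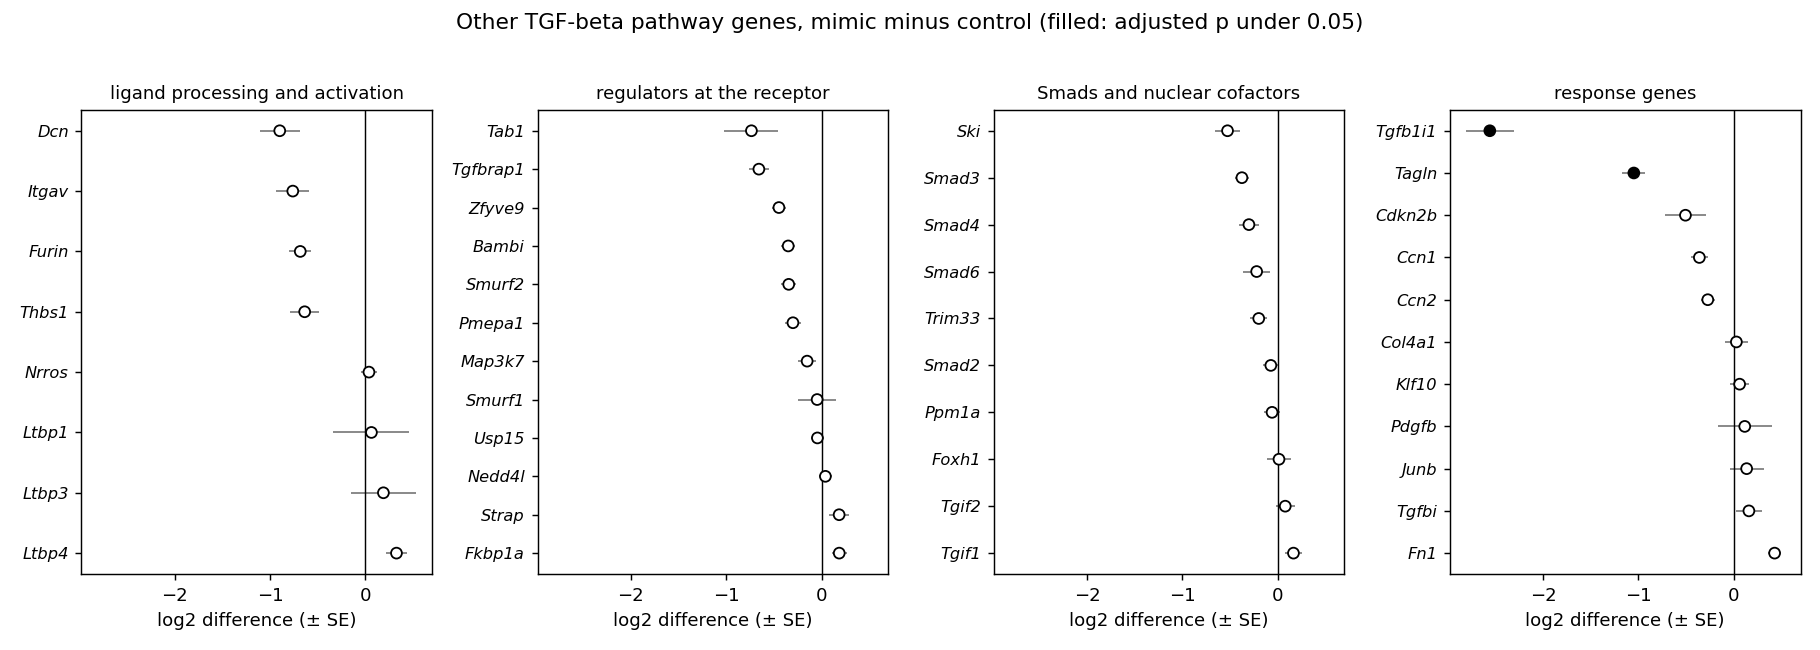
Log2 difference, mimic minus control (points, with SE), of 41 further pathway genes in 4 lists, through the brightest probe set of each, filled where the adjusted p was under 0.05. Tagln at −1.05 and Tgfb1i1 at −2.56 are the filled points, the second with all mimic values under 16, where its difference is not settled, and the 12 regulators at the receptor and 10 Smads and cofactors hold none.

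The transcripts whose intensities followed those of Tgfbr2 most closely over the 6 arrays were Mfsd6 (Pearson r = 0.9993 on the log2 scale), Cd24a (0.998) and Fam120a (0.9979). These correlations describe mainly the gap between the groups, which the 6 arrays share, and 1767 probe sets (6.06% of those tested) had an r over 0.9 with Tgfbr2. Mfsd6 read 155, 145 and 146 on the mimic arrays and 349.6, 348 and 315 on the control arrays. Cd24a, a gene for a small cell surface glycoprotein, gave a log2 difference of −0.77 and Mfsd6 one of −1.18 (limma adjusted p = 0.0287 and 0.0231), while Fam120a gave −0.23 and did not pass (limma adjusted p = 0.144).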

How the data were processed

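For each array the authors deposited 1 linear intensity per probe set. The submitters' processing notes name GCRMA, but the values are not on its usual log2 scale, and the trimmed mean (2% off each end) is 500.0 on each array, so the tool that made them is not settled here. Detection calls were not used here. Genes were named from the platform annotation: 34958 probe sets had 1 symbol, 932 several and 9211 none. Intensities were log2-transformed with no offset. Control probe sets (64) and 15870 with a mean log2 under 4 were left out. Mimic minus control was tested in limma (version 3.58.1, under R 4.3.3; lmFit and eBayes, constant prior variance, two-sided, no covariates), with a threshold of 0.05 after Benjamini-Hochberg adjustment over all 29167 probe sets; the fit was tested on simulated data. The number of arrays limits the precision. All 6 arrays carry 1 analysis date, so no batch could be separated. Alternatives were an offset of 16, median centring, quantile normalization, no filter, a filter at a mean log2 of 6, the level-dependent robust prior, a replicate block, leaving out each array, and averaging all probe sets of a gene. Named were all 9 genes; from each list up to 4 genes past the threshold, or, where fewer than 2 passed, the 2 with the highest mean; and the 3 genes most correlated with Tgfbr2. The members and lists were chosen with earlier results of these data known.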

Additional observations from a re-analysis of the deposited data

How the results depend on the processing

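Among the 15 tested probe sets 1 was called lower and 0 higher, and these counts stayed under the offset, both normalizations and the filter at a mean log2 of 6. The count lower was 3 and the count higher 1 with the level-dependent robust prior (Tgfbr2, Smad7 and Skil lower, Tgfb1 higher). It was 0 lower with no filter on low values, with the replicate block and in each fit without 1 array, and ranged from 1 to 2 lower and 0 to 1 higher without 1 array under that prior. Without a filter limma called 0 probe sets on the whole array, against 5645 at an unadjusted p under 0.05, and with the replicate block 0, against 5189; without 1 array it called 0 or 1, against 4612 to 5205, and the level-dependent robust prior on all 6 arrays called 3293. For Tgfbr2 the adjusted p was 0.104 with no filter and 0.208 with the block. Of the pathway genes, 2 lower and 0 higher, the count lower was 3 with the offset, 1 with median centring, 0 with no filter and with the block, 10 with the filter at 6, 14 with the level-dependent robust prior and 4 when a gene's probe sets were averaged; the count higher was 1 with the offset and with the filter at 6 and 3 with the robust prior. Without 1 array 0 were lower, and under the robust prior 7, 9, 10, 11, 11 or 13 were lower and 1 to 4 higher. The shares of all probe sets moved too. Those called lower were 0.946% as reported, 1.52% with the offset, 7.8% with the filter at 6 and 6.56% with the robust prior. Those called higher were 0.343%, 0.638%, 4.36% and 4.73%. Under the robust prior without 1 array they were 4.07% to 5.49% lower and 2.5% to 4.27% higher. With probe sets averaged, 2.27% of genes were called lower. The sign turned only in fits without 1 array, alike under both priors: Tgfbr3 1433795_at (−0.19 to 0.36 over these fits) was −0.0013 without control replicate 1 and −0.19 without control replicate 2, Tgfbr3 1425620_at (−0.034 to 0.18) was −0.034 without mimic replicate 2 and −0.023 without control replicate 3, and Skil 1422054_a_at (−0.022 to 0.15) was −0.022 without mimic replicate 2. The labels do not say whether same-numbered arrays were made as pairs, and the values do not settle it. Deviations of same-numbered arrays correlated at −0.00612, 0.0123 and 0.0242, against −0.0257 to 0.0126 for different numbers. Of the 6 arrays, 3 correlated best with their own number. Where these calls changed, the cause was not tested. Values under 16, which include all those of Tgfb3, cannot be told from background here. The limit of 16 was chosen and no background level was estimated, so values above it are not thereby shown to be signal.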
